A study of Mus musculus with 8 samples.

Results

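Wnt2 and Wnt16 are Wnt ligands and Tspan12 is a co-receptor of the Wnt pathway, and all 3 could be read by name in a liver RNA sequencing table of 55416 gene rows. They were picked by their symbols on chromosome 6, inside a stretch where row names fit the counts, and they make up 3 of the 1433 rows that can be read in that way. Wnt2 was a minor transcript with a lower mean in SostPB/- than in Sost-/- livers, a difference that did not pass the test. Wnt16 was at the limit of detection in both genotypes. Tspan12 was abundant, ranked 18 of 562 readable protein-coding genes per length, and was close in level between the genotypes.

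There were 8 poly-A liver libraries, 4 labelled Sost-/- and 4 labelled SostPB/-. The mice of both groups received the MCD diet, which in its usual sense lacks methionine and choline and is used to bring on steatohepatitis. Both genotypes carry at least 1 Sost null allele by their labels, and no wild-type mouse and no mouse on a normal diet is used here. The series asks what Sost overexpression does to steatohepatitis, but the labels neither spell out PB nor name an overexpressing group. By its label Sost-/- carries only null alleles, so of these groups only SostPB/- could overexpress Sost. Whether it does was not tested. The sources used here give no strain, age or sex. The titles call the samples of a group biological replicates.

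Wnt ligands are secreted, lipid-modified proteins that bind a Frizzled receptor together with Lrp5 or Lrp6, and this keeps beta-catenin from being degraded so that it can act with TCF/LEF factors on target genes. Sclerostin, the product of Sost, binds Lrp5 and Lrp6 and blocks this step. In the liver, endothelial cells around the central vein are a known source of Wnt2, and the signal keeps nearby hepatocytes in their pericentral state. Wnt16 is a ligand best known from bone. Tspan12 is a membrane-spanning tetraspanin that assists Frizzled-4 and Lrp5 in the response to norrin, a ligand that is not itself a Wnt, and is best known from retinal vessels.

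Rows could be read on 3 stretches, of chromosome 4 (3831334 to 62426990), chromosome 6 (3498382 to 30896794) and chromosome 15 (8109273 to 35938246) on GRCm38. Genes of families that all cells use reached a mean of 100 counts in 24 of 26 cases there and in 106 of 644 elsewhere, a contrast that chose the stretches. The other protein-coding genes reached it in 53.9% of cases there and in 15.2% elsewhere. They did not set the borders of the stretches. Their counts took part, with those of all rows, in the exon match by which stretches were kept. This contrast is thus not an independent check. The 3 genes lie well inside the chromosome 6 stretch. When the exons of the 100 rows on each side of a gene were moved along the chromosome, the counts followed coding exons best at a move of -50 bp around Wnt2 and of 250 bp around Wnt16 and Tspan12. The correlation across rows there was 0.618, 0.638 and 0.625, and with no move 0.618, 0.633 and 0.623. At moves beyond 100 kb it was at most 0.479, 0.504 and 0.505. The whole stretch was kept because it passed the same match, so these windows inside it are not an independent check. Moves were tried in steps of 50 bp, so a smaller mismatch of exon borders cannot be seen.

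The nearest genes on each side were filled or empty as follows. St7, which lies 45915 bp from Wnt2, held 499 to 981 counts per library, and Asz1, a germ cell gene on its other side, held 0 in all 8. Kcnd2, a neuronal potassium channel beside Tspan12, held 0 to 4 counts, and Ing3, on the other side, 362 to 713. Wnt16 lies between Cped1, with 2342 to 3909 counts, and the secreted factor Fam3c, with 1645 to 2638, at only 7998 bp from the latter. A nearly empty row thus stood between filled ones, and a filled one stood next to an empty one.

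**Figure D1:**
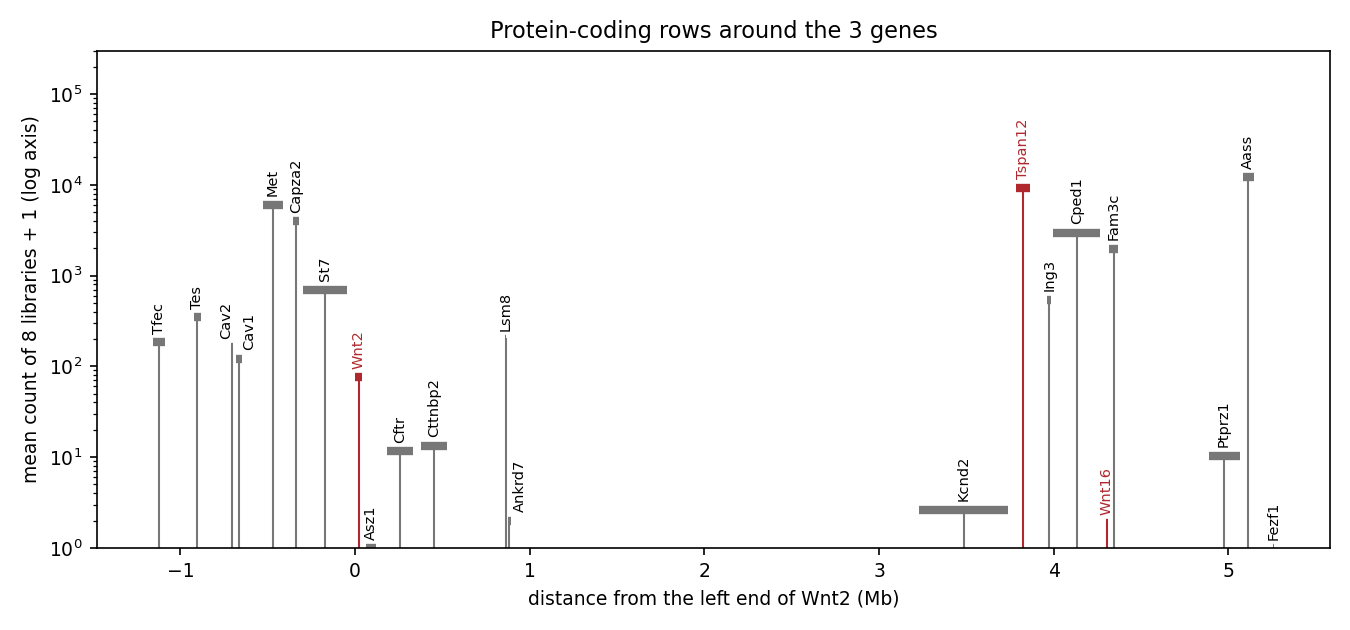
Mean count of the 8 libraries plus 1 (log axis) for protein-coding rows on chromosome 6, against the distance in Mb from the left end of Wnt2; bars span each gene. Tspan12 stands at a mean of 9318 counts, Wnt2 at 75.1 and Wnt16 at 0.875, the last between the filled rows of Cped1 and Fam3c.

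Wnt2 (ENSMUSG00000010797, minus strand) spans 17988940 to 18030585, Tspan12 (ENSMUSG00000029669, minus strand) 21771395 to 21852515, and Wnt16 (ENSMUSG00000029671, plus strand) 22288227 to 22298522, all on chromosome 6 of GRCm38. Their annotated exons add up to 2255, 3311 and 4360 bp. No other annotated gene overlaps Wnt2 or Wnt16. Gm30270, an antisense RNA gene on the plus strand, shares 98 bp of exon with the 5′ end of Tspan12, and without a stated strand setting the reads of those bases cannot be told apart.

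The 110 bases before the first annotated start of each gene are printed to show how unlike these start regions are for genes of such different levels. They are from RefSeq's promoter table on GRCm38.p6, 5′ to 3′ on the strand of the gene, with CpG pairs in capitals. Wnt2 is at chr6:18030586-18030695, Wnt16 at chr6:22288117-22288226 and Tspan12 at chr6:21852534-21852643.
Wnt2: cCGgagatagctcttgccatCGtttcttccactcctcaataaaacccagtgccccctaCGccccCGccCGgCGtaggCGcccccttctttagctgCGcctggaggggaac
Wnt16: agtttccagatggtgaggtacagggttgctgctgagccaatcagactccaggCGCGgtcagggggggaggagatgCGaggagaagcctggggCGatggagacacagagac
Tspan12: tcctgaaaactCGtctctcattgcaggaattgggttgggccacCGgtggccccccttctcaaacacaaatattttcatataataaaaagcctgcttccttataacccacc
The Wnt2 window held 8 CpG pairs and 62.7% G and C, the Wnt16 window 4 pairs and 60.9%, and the Tspan12 window 2 pairs and 45.5%. The background was 32851 windows of this length that end at RefSeq's own start, with a median of 3 pairs. Of these windows 71.7% had fewer than Wnt2, 54.2% fewer than Wnt16 and 36.0% fewer than Tspan12. The windows of the 3 genes end at the first start in RefSeq or GENCODE. Their place relative to RefSeq's start is therefore not in every case that of the background windows, so these shares are a rough guide. RefSeq's full 300-base promoters held 27 CpG pairs for Wnt2, 10 for Wnt16 and 7 for Tspan12. Tspan12, the most abundant of the 3, had the window with the fewest CpG pairs. Which start the liver transcripts use was not tested. The TCF/LEF core CTTTGAT, searched on both strands, was not found in the windows of the 3 genes, and 1.32% of the background windows hold it.

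Total counts per library ran from 9919069 to 14932773 in Sost-/- and from 9578086 to 14613316 in SostPB/-. Mitochondrial rows took 47.4% to 59.2% of counts in Sost-/- and 54.7% to 64.3% in SostPB/-, which left 5112898 to 6094740 and 3716995 to 5965461 nuclear counts. Rows above 0 numbered 15436 to 16629 in Sost-/- and 14459 to 14762 in SostPB/-, with no overlap. The part of this gap in the values of Wnt2 and Wnt16 was not tested. The liver label was checked on readable hepatocyte genes: the serum esterase Pon1 held 15552 to 27897 counts per library and the bile acid enzyme Baat 3764 to 6617. The row named Sost lies outside the readable stretches, so the altered gene itself is not analysed here.

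Of the 2 genes that could be tested, Wnt2 had the larger fold difference between the genotypes. In Sost-/- livers it held 78, 104, 149 and 96 counts in replicates 1 to 4, or 5.88, 9.04, 12.6 and 8.26 CPM (counts-per-million, on library totals scaled by the TMM method). In SostPB/- livers it held 70, 47, 0 and 57 counts, or 7.12, 3.48, 0 and 5.72 CPM. Sost-/- replicate 3 was the highest and SostPB/- replicate 3 the lowest. The groups overlapped: SostPB/- replicate 1 lay above Sost-/- replicate 1, and the other 3 SostPB/- libraries lay below every Sost-/- library. SostPB/- replicate 4, at 5.72 CPM, and Sost-/- replicate 1, at 5.88 CPM, cannot be told apart by counting error, with exact Poisson 95% intervals of 4.33 to 7.41 and 4.65 to 7.34 CPM.

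Averaged by genotype, Wnt2 stood at 8.95 ± 2.79 CPM in the Sost-/- and 4.08 ± 3.11 CPM in the SostPB/- livers (SD, n = 4 each). SostPB/- over Sost-/- gave a log2 fold change of -1.13 (SE 0.74) with a 95% interval from -2.77 to 0.52, and edgeR's adjusted p over all 10020 rows tested was 0.924. The interval runs from 0.147-fold to 1.43-fold, so it holds a severalfold lower level as well as an unchanged one. An exact two-sided permutation test of log2(CPM + 1) over the 8 libraries gave p = 0.0571, where 4 against 4 cannot go below 0.0286. limma-voom with sample weights gave a larger log2 fold change, -2.11 (SE 0.97), which did not pass its own adjusted test (p = 0.618).

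For background, edgeR called 0 rows at an adjusted p of 0.05 (0%), 646 (6.45%) had an unadjusted p under 0.05, and DESeq2 called 53 of its 12666 rows (0.418%). Of 460 readable rows tested 38 (8.26%) had such an unadjusted p, 4.57% on the lower and 3.7% on the higher side in SostPB/-. Groups did not overlap in 19 of them (4.13%), 2.17% lower and 1.96% higher. DESeq2 called 0.774% of its 517 readable rows. Wnt2, with an unadjusted edgeR p of 0.159 and overlapping groups, was in none of these sets.

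**Figure D2:**
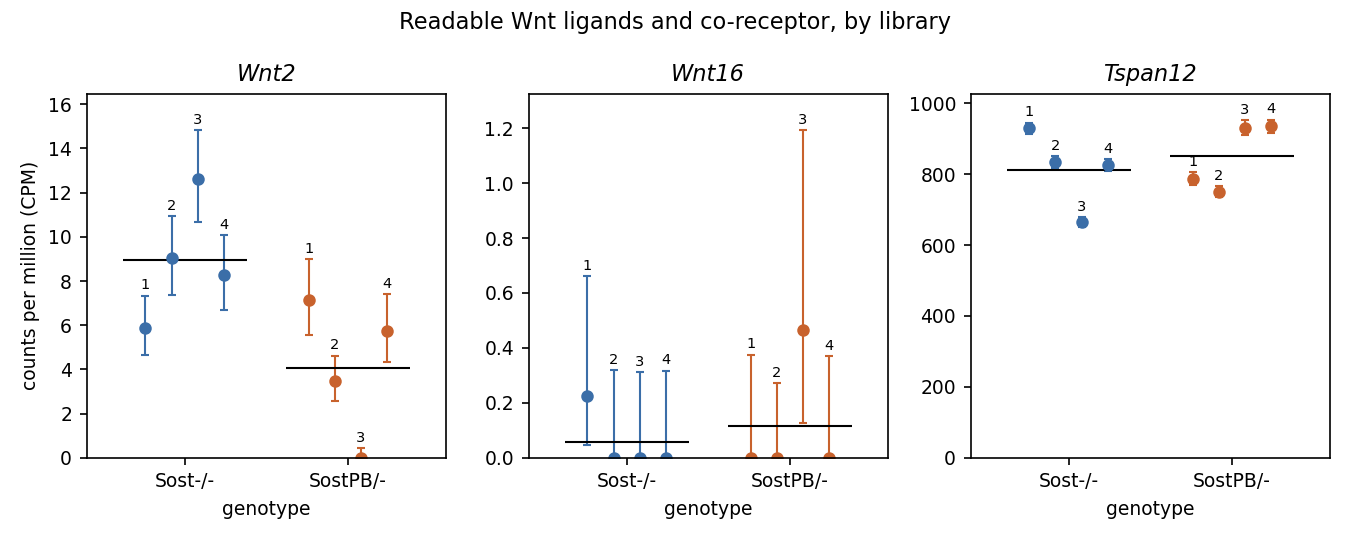
CPM of Wnt2, Wnt16 and Tspan12 in each library, by genotype, with a separate axis from 0 for each gene; numbers are replicates, bars are exact Poisson 95% intervals of the count and black lines are group means. Wnt2 spans 0 to 7.12 CPM in SostPB/- and 5.88 to 12.6 in Sost-/-, Wnt16 is at 0 in 6 of 8 libraries, and Tspan12 lies between 664 and 935 CPM.

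The size of the Wnt2 difference rested in part on SostPB/- replicate 3. At the mean of the other 3 SostPB/- libraries, 5.44 ± 1.84 CPM (SD, n = 3), that library would have held 46.8 counts where it held 0. A count of 0 there allows up to 0.349 CPM when the limit is set at 3 counts, and up to 0.429 CPM by the exact Poisson 95% interval; both cover counting error only. The same library had the highest mitochondrial share of the 8, 64.3%, and the fewest nuclear counts, 3716995, and their part in its Wnt2 value was not tested. Without it the log2 fold change came to -0.72 (SE 0.35), with a 95% interval from -1.52 to 0.07 and an edgeR adjusted p of 0.983. The coefficient of variation of Wnt2 was 76.1% in SostPB/- and 31.2% in Sost-/-, against medians of 17.8% and 18.8% over 373 readable protein-coding rows. An empty library beside filled ones was rare. Of 324 readable protein-coding rows with at least 40 counts in 7 or more libraries, 2 held 0 in the remaining one. These were Wnt2 and Ndufa5, a subunit of respiratory complex I that all cells use, which held 0 in SostPB/- replicate 2 and 1028 to 2042 in the others. Whether such a 0 is a level or a loss in counting was not tested.

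Endothelial genes were present in every library. Of 7 markers listed for this cell type 3 lay on readable rows: Cav1 and Cav2, which form caveolae, and Gng11, a G protein subunit. Their summed level was 28.4 to 38.8 CPM in Sost-/- and 31.5 to 39.7 CPM in SostPB/-, and none of the 3 was at 0 in any library. In SostPB/- replicate 3, where Wnt2 was at 0, Cav1 held 110 counts, Cav2 132 and Gng11 58. Gng11 was lowest of the 8 libraries there, at 6.75 CPM against 6.86 to 12.5, while Cav1, at 12.8 CPM, was among the highest. Their log2 fold changes were 0.14 (SE 0.23), 0.11 (SE 0.23) and 0.01 (SE 0.27), and each had an edgeR adjusted p of 0.981 or above. Cav1 and Cav2 are also made by other cells. The rows of Pecam1, Cdh5, Stab2 and Lyve1 are not readable, so the endothelial share was seen through these 3 genes alone. In a whole liver, fewer cells of a type and less RNA per cell cannot be told apart. Of the other liver cells, the stellate genes Col1a2 and Col15a1 summed to 92.7 to 177 CPM in Sost-/- and 103 to 169 CPM in SostPB/-. The macrophage gene Irf5 stood at 43.6 to 68.0 and 36.3 to 56.0 CPM, and the B cell genes Pax5 and Cd72 summed to 6.37 to 17.8 and 6.51 to 16.7 CPM. Cftr, of bile duct cells, stood at 0 to 1.81 and 0 to 3.21 CPM. The hepatocyte genes Pon1 and Baat stood at 1543 to 2035 and 394 to 569 CPM in Sost-/- and at 1560 to 2174 and 383 to 492 CPM in SostPB/-. Each of these ranges overlapped between the genotypes. Their part in the Wnt2 values was not tested.

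**Figure D3:**
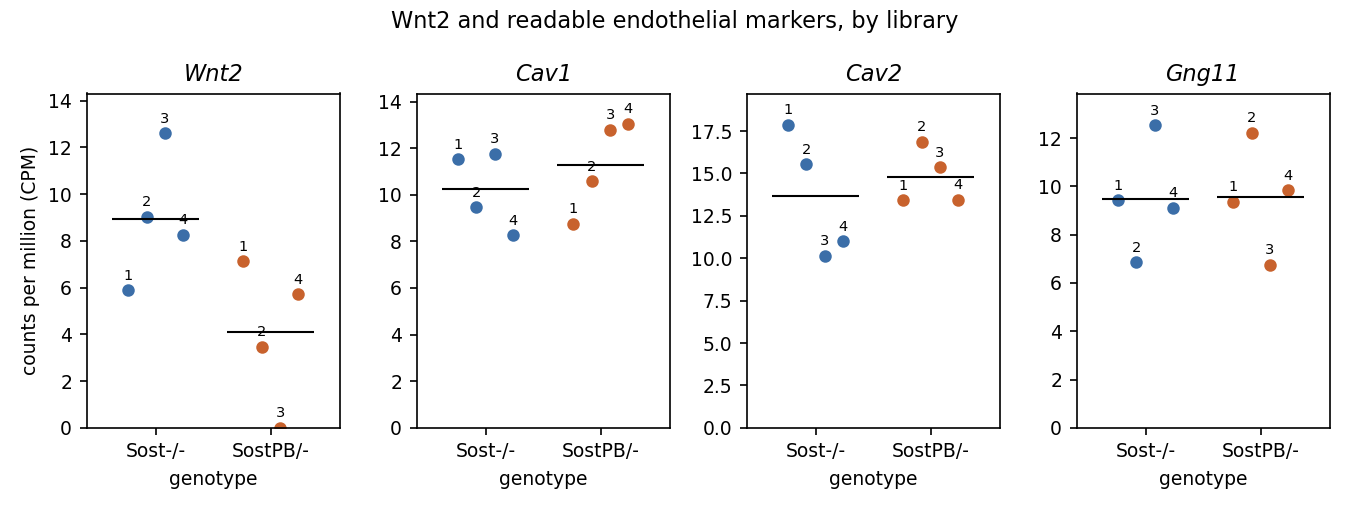
CPM of Wnt2 and of the endothelial markers Cav1, Cav2 and Gng11 in each library, by genotype, with a separate axis from 0 for each gene; numbers are replicates and black lines are group means. SostPB/- replicate 3 is at 0 for Wnt2 and at 12.8, 15.4 and 6.75 CPM for Cav1, Cav2 and Gng11.

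The readable genes closest to Wnt2 in pattern were Msantd3, Ccdc107 and Ahcyl2. Likeness was the root-mean-square difference of log2(CPM + 1), scaled to a mean of 0 and an SD of 1, over the 8 libraries, and it was 0.330, 0.395 and 0.400 for these against a median of 1.36 over 372 genes. Ahcyl2, a relative of the IP3 receptor-binding protein IRBIT, held 86 counts in SostPB/- replicate 3 and 497 to 901 in the other libraries. Msantd3 and Ccdc107 were also lowest in that library, at 6 and 450 counts. The likeness thus rests largely on that 1 library, and the genes were picked for it, so it is a description.

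Wnt16 was barely seen. It held 3 counts in Sost-/- replicate 1, 4 counts in SostPB/- replicate 3 and 0 in the other 6 libraries. Pooled by group this was 3 counts in Sost-/- and 4 in SostPB/-, or 0.0622 CPM (exact Poisson 95% interval 0.0128 to 0.182) and 0.0955 CPM (0.0260 to 0.244). A library at 0 allows up to 0.222 to 0.305 CPM at a limit of 3 counts, depending on its depth, and up to 0.273 to 0.375 CPM by the exact Poisson 95% interval. The row did not pass the low-count filter and no fold change is given. With 1 library above 0 in each group, these counts give no order of the genotypes, and the pooled intervals overlap.

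Tspan12 was the abundant gene of the 3. It held 12323, 9587, 7845 and 9589 counts in Sost-/- replicates 1 to 4, or 929, 833, 664 and 825 CPM. In SostPB/- it held 7739, 10140, 8004 and 9318 counts, or 787, 751, 931 and 935 CPM. Sost-/- replicate 3 was the lowest of the 8 and the groups overlapped over most of their range. The means were 813 ± 110 CPM for Sost-/- and 851 ± 95.8 CPM for SostPB/- (SD, n = 4 each).

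The log2 fold change of Tspan12 was 0.07 (SE 0.15, edgeR adjusted p = 0.982), with a 95% interval from -0.27 to 0.40 that corresponds to 0.830-fold to 1.32-fold. An exact two-sided permutation test of log2(CPM + 1) gave p = 0.600. With plain library totals in place of TMM the value was -0.12, a scaling under which the median of all rows moved to -0.21. RLE size factors, another scaling, gave 0.08, and TMM on nuclear rows only gave 0.07. The direction thus reversed under plain totals alone of these scalings, and also without Sost-/- replicate 3 (-0.017). It is not settled, and a change of 2-fold either way lies outside the interval above. Its spread between replicates was narrow, with a coefficient of variation of 13.5% in Sost-/- and 11.3% in SostPB/-. edgeR's dispersion was 0.0391 for Tspan12 and 0.559 for Wnt2, against a median of 0.0620 in readable rows.

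The readable genes closest to Tspan12 in pattern were Manea, an endomannosidase of the Golgi, at a root-mean-square difference of 0.147, Dpy19l4 at 0.237, and St7 at 0.241, against a median of 1.25 over 372 genes. Each of these, like Tspan12, was lowest in Sost-/- replicate 3, with 115 CPM for Manea, 75.0 for Dpy19l4 and 42.2 for St7. They were picked for their likeness to Tspan12, so the shared low library is a description.

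Per kilobase of exon, the scale on which genes can be set side by side, Tspan12 stood at 251 CPM, Wnt2 at 2.89 and Wnt16 at 0.0198. Among 562 readable protein-coding genes they ranked 18, 295 and 460. Tspan12 was 87.0 times as abundant as Wnt2. The order was the same in each genotype, at 245 ± 33.2, 3.97 ± 1.24 and 0.0130 ± 0.0259 CPM per kilobase in Sost-/- and 257 ± 28.9, 1.81 ± 1.38 and 0.0267 ± 0.0534 in SostPB/- (SD, n = 4 each). Wnt2 lay among genes of like level that are also far below hepatocyte transcripts, such as Cav1 at 3.13, while Baat, at 230.0, was close to Tspan12.

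**Figure D4:**
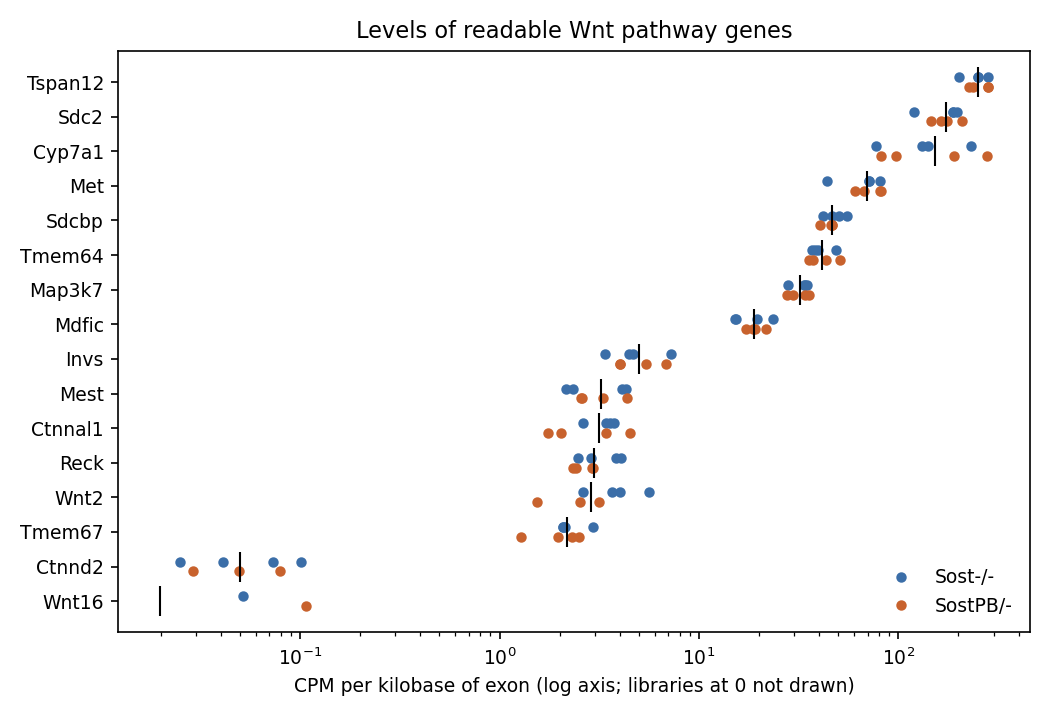
CPM per kilobase of exon (log axis) of the readable Wnt pathway genes above 0, a point per library coloured by genotype and a black mark at the mean of all 8; libraries at 0 are not drawn. Tspan12 leads at 251, Wnt2 lies at 2.89 and Wnt16 at 0.0198, the lowest of those drawn.

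The wider pathway was looked at through a list of 118 Wnt genes, of which 18 lay on readable rows and 100 did not. The unread ones include the other 17 of 19 ligands, the 10 Frizzled genes, Lrp5, Lrp6, the transducers Dvl1 to Dvl3, Ctnnb1 and the nuclear factors, and the usual liver targets Axin2, Lgr5 and Glul. Of the 15 readable genes beside the 3, 12 passed the low-count filter. None of the 12 passed edgeR's test (0%), DESeq2's or limma-voom's, and 0 had an unadjusted p under 0.05 in any of them. Over all rows edgeR called 0% and DESeq2 0.418%, and 6.45% had an unadjusted edgeR p under 0.05. With shares this low, 12 genes are too few to be set apart from other rows. In the edgeR fit 5 were on the higher side in SostPB/- and 7 on the lower, with a median log2 fold change of -0.01, beside -0.01 over all 10020 rows. With plain library totals all 12 were on the lower side, at a median of -0.19 against -0.21 over all rows.

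**Figure D5:**
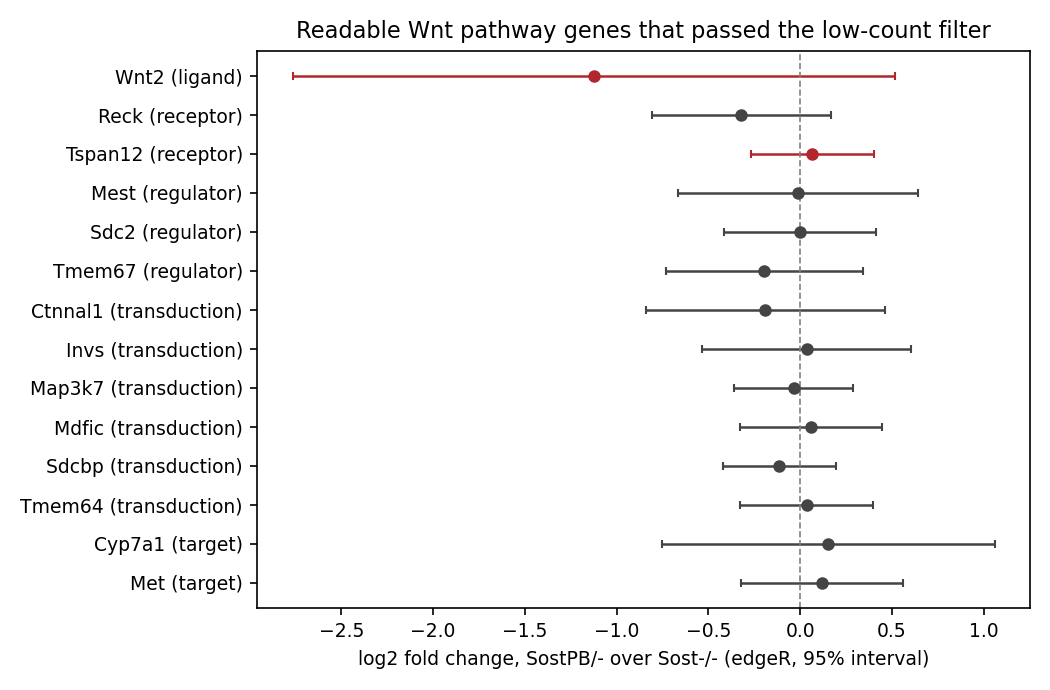
edgeR log2 fold change of SostPB/- over Sost-/- with its 95% interval for the 14 readable Wnt pathway genes that passed the low-count filter, Wnt2 and Tspan12 in red; the dashed line is at 0. Every interval spans 0, Wnt2 has the widest, and with plain library totals Tspan12 and the other genes on the right of the line move to its left.

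Among receptors and co-receptors, Reck, a surface protein that helps Wnt7 ligands reach their receptor, averaged 15.8 ± 3.58 CPM in the Sost-/- and 12.7 ± 1.5 CPM in the SostPB/- livers (SD, n = 4 each). Its log2 fold change of -0.32 (SE 0.22, edgeR adjusted p = 0.935) was the lowest of the 12. Musk, a muscle receptor kinase with a Frizzled-like domain, held 0 counts in all 8 libraries. Its row lies between Mrpl50 and Prpf4 on chromosome 4, where no gene of the ubiquitous families anchors the names. Gpr37, which assists Lrp6 maturation, also held 0.

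Of the regulators at the surface or in secretion, Mest, reported to hold back Lrp6 maturation, had 12.8 ± 4.51 and 12.7 ± 3.33 CPM in Sost-/- and SostPB/- (SD, n = 4 each), a log2 fold change of -0.01 (SE 0.30). The heparan sulfate carrier Sdc2 stood at 610.3 ± 125 and 609.8 ± 94.1 CPM. Tmem67, a ciliary membrane protein with a Frizzled-like domain, had a log2 fold change of -0.20 (SE 0.24). These 3 levels differed by less than the spread between replicates.

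The tested genes of signal transduction had log2 fold changes smaller than their standard errors, which does not show equal levels. Mdfic, which binds Axin, had a log2 fold change of 0.06 (SE 0.18). The kinase Map3k7 was at -0.04 (SE 0.15), the Frizzled-binding adaptor Sdcbp at -0.11 (SE 0.14), and Tmem64, a membrane protein of the endoplasmic reticulum reported to affect beta-catenin, at 0.04 (SE 0.16). Invs, a ciliary protein that shifts Wnt signalling between branches, was at 0.04 (SE 0.26). Ctnnal1, a catenin relative, was at -0.19 (SE 0.29), and it lies between Mrpl50 and Prpf4 in a part of chromosome 4 where no gene of the ubiquitous families anchors the names. Ctnnd2, a catenin of nerve cells, held 0 to 12 counts and did not pass the filter. Its row lies between Nup155 and Cct5 on chromosome 15, nearer to Cct5, and no gene of these families anchors the names in between.

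2 genes of the target and pericentral list were readable. Met, the receptor of hepatocyte growth factor, averaged 513 ± 122 CPM in the Sost-/- and 557 ± 79.2 CPM in the SostPB/- livers (SD, n = 4 each), a log2 fold change of 0.12 (SE 0.20). Cyp7a1, a bile acid enzyme found mainly in pericentral hepatocytes, ranged from 323 to 968 CPM in Sost-/- and from 343 to 1158 CPM in SostPB/-. Its log2 fold change of 0.15 had a standard error of 0.41, the largest of the 12, and the adjusted p in edgeR's test was 0.986 for Cyp7a1 and 0.981 for Met. The 95% interval ran from 0.593-fold to 2.08-fold for Cyp7a1 and from 0.800-fold to 1.47-fold for Met.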

How the data were processed

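Liver poly-A RNA was sequenced in 4 Sost-/- and 4 SostPB/- samples, grouped by title. Per the submitters' processing notes the tools were HISAT2, StringTie and DESeq2 on mm10. Tool versions, strand setting, annotation release and the step from StringTie's output to counts were not given in the sources used here. The authors deposited whole-number counts for 55416 rows and, for 22883 rows, a normalized signal that equals the counts divided by 1 factor per library (0.782 to 1.24). Multiplied back, 100% of values were whole within 0.001, and the 3 genes had the same counts in both.

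Rows were placed by Ensembl ID with GENCODE M21 (GRCm38), which found 52083. Runs of 670 genes of ubiquitous families were scored per chromosome (detection at 100 counts, assumed detected share 0.95 inside and 0.15 outside, minimum score 5), and a run was kept when counts matched coding exons best within 1000 bp. Of 4 runs 3 were kept. The members, gene lists, stretches and named genes (members, pathway list, neighbours, markers, 3 most alike) were chosen with earlier results of these data known. The minimum of 40 counts for rows with 1 library at 0 was set after seeing the values.

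The main test on counts was edgeR's (version 4.0.16, R 4.3.3), with filterByExpr, TMM, glmQLFit and glmQLFTest and Benjamini-Hochberg over 10020 rows at 0.05, with standard errors as the log2 fold change over the square root of F. Alternatives were limma-voom with sample weights (3.58.1), DESeq2 (1.42.0), a block for the replicate number, other scalings and filters, and fits that dropped 1 library at a time. Reads recovered from the normalized table were added after seeing the data. A further readable hepatocyte marker, and the summed hepatocyte level that holds it, are not reported here. Simulated data were used to test the scripts. Permutation tests enumerated 70 splits with a pseudocount of 1 CPM. Exact Poisson intervals (95%) cover counting error only, and p-values measure the spread between these samples. Promoter windows are RefSeq's, with 3 of 3 genes matched.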

Additional observations from a re-analysis of the deposited data

Results flagged for a closer look

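Within each genotype, the library farthest from the rest was compared with the range of its group of 4, for the 3 genes, the readable pathway and marker genes and 4 library totals. Of 60 sets, 10 had a library standing apart (gap over range above 0.829), where chance gives about 1 in 20 for independent sets of normally distributed values. These sets share libraries and are not independent, and each Wnt16 set holds only 1 library above 0. That rate is thus no test of the share seen here.

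Wnt16 stood apart in Sost-/- replicate 1, at 0.226 CPM, and in SostPB/- replicate 3, at 0.465 CPM, because the other libraries of each group were at 0. These are 3 and 4 counts. Wnt2 and Tspan12 had no library standing apart by this measure, the 0 of SostPB/- replicate 3 included, since replicate 2 of that group was also low.

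Among the pathway genes, Tmem67 was high in Sost-/- replicate 4, at 22.9 CPM against 16.2 to 16.4 in its group. Sdc2 was low in Sost-/- replicate 3, at 424 CPM against 659 to 696, and Map3k7 was low in the same library, at 180.0 CPM against 217 to 223. Sdcbp was low in SostPB/- replicate 4, at 279.6 CPM against 315.6 to 321.

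Total counts were high in Sost-/- replicate 1, at 14932773, and in SostPB/- replicate 2, at 14613316. Nuclear counts were high in Sost-/- replicate 1, at 6094740 against 5112898 to 5265562. Rows above 0 were low in SostPB/- replicate 4, at 14459 against 14735 to 14762.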

How the results depend on the processing

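Wnt2 stayed on the lower side in SostPB/-, without passing edgeR's, DESeq2's or limma-voom's adjusted test, in each of the 17 alternatives run. Its log2 fold change was -1.28 with plain totals, -2.11 in limma-voom with sample weights and -1.42 with the replicate block (edgeR adjusted p = 0.979), and from -1.53 to -0.72 when each library was left out in turn. The reads recovered from the normalized table hold the same Wnt2 counts and returned the main value of -1.13, so that alternative is no separate check. Tspan12 changed sign with plain totals (-0.12) and ran from -0.017 (without Sost-/- replicate 3) to 0.14 when each library was left out; with the replicate block it was 0.07. The difference of Wnt16 on log2(CPM + 1) was 0.06 and ran from -0.074 (without SostPB/- replicate 3) to 0.14 when each library was left out; fitted log2 fold changes were 1.01 (SE 3.41) in DESeq2, which gave no adjusted p, and 0.82 (SE 2.01) in edgeR with no low-count filter. At so few counts edgeR's fitted value depends on its prior count, and the standard error exceeded the value in both fits. The limma-voom and block fits used filtered rows without Wnt16. Calls over all rows went from 0 to 2 with no low-count filter, 53 in DESeq2 and 1 in limma-voom, and from 0 to 4 when each library was left out (4 without Sost-/- replicate 1). Calls among readable rows went from 0 to 4 in DESeq2, and from 0 to 1 when each library was left out (1 without SostPB/- replicate 3 and 1 without SostPB/- replicate 4). The replicate block called 0 rows. Counts of readable Wnt pathway genes called stayed at 0 in the alternatives run. The cause of these shifts was not tested. Over all rows tested, same-numbered libraries did not deviate together, with correlations of -0.0919, -0.0189, -0.0615 and 0.0587 for numbers 1 to 4, so the numbers are not taken as pairs. Single genes can still follow the number, which such a correlation cannot show. For Cyp7a1 the replicate block gave a log2 fold change of 0.09 (SE 0.19), against 0.15 (SE 0.41) without it. Depth limits Wnt16 in particular, which 3 and 4 counts per group cannot rank.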
